A study of Mus musculus with 12 samples.

Results

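The 10 genes described here encode enzymes that build triglycerides from glycerol 3-phosphate, with 1 patatin-domain protein that acts on the product: *Gpam*, *Agpat1*, *Agpat2*, *Agpat3*, *Lpin1*, *Lpin2*, *Lpin3*, *Dgat1*, *Dgat2* and *Pnpla3*. They were listed by symbol for their place in the pathway, with earlier results of these arrays known, and several had been named by the study from these arrays, so their counts at D9 are not independent evidence. They are 10 of the 30077 genes to which a probe set of the array could be assigned. Each of the 10 was measured by 1 probe set. RNA came from 3T3-L1 cells, a mouse preadipocyte line that turns into fat-laden adipocytes under hormones, and was hybridised to 12 Affymetrix Mouse Transcriptome Arrays 1.0, with 3 arrays in each of 4 groups. All cells had received dexamethasone, IBMX and insulin from day 0 (D0). In the 2 groups called D2, cells were transfected at D0 with 100 nM siRNA, either non-targeting (Ctrl-siRNA) or directed at the long non-coding RNA *Paral1* (Paral1-siRNA), and collected at D2 (experiments 1, 2 and 3). In the 2 groups called D9, already differentiated cells were detached with trypsin, transfected in suspension at D7 with the same siRNAs at 100 nM, and collected at D9 (experiments 4, 5 and 6). The labels name 1 reagent for *Paral1*, which the methods list as Paral1/2-siRNA, while the main text of the study says that Paral1/1-siRNA was the one carried forward. No probe set for *Paral1* itself was looked up here, and its knockdown on these arrays was not tested.

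Triglycerides are assembled on the endoplasmic reticulum and the outer mitochondrial membrane by adding fatty acyl chains, 1 at a time, to a glycerol backbone. *Gpam* encodes the mitochondrial acyltransferase that makes lysophosphatidic acid, and the AGPAT enzymes add the next chain to give phosphatidic acid. Lipins remove the phosphate to give diacylglycerol, and DGAT1 and DGAT2, which are unrelated in sequence, add the last chain. In humans and mice, loss of AGPAT2 causes near absence of adipose tissue, and loss of lipin 1 causes lipodystrophy in mice.

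RefSeq promoter windows (GRCm38.p6) were on hand for 8 of the 10 genes, all but *Dgat1* and *Dgat2*. To let the successive steps be read side by side, 1 window is shown for each of 4 genes that rose by D9 (described further on), as the 250 bases before the start site, 5′ to 3′. Capitals mark letters that match 1 of the searched motifs on either strand.
*Gpam*, chr19:55127239-55127488, minus strand: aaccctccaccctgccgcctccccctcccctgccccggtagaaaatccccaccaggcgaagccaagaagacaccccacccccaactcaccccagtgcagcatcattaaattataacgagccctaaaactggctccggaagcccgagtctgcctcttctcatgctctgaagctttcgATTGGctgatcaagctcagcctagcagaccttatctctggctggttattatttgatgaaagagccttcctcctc
*Agpat2*, chr2:26604418-26604667, minus strand: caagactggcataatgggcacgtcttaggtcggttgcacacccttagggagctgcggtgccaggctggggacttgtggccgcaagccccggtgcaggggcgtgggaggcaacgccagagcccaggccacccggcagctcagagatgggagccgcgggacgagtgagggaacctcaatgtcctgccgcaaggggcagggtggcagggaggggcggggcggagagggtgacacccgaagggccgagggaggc
*Lpin1*, chr12:16610967-16611216, minus strand: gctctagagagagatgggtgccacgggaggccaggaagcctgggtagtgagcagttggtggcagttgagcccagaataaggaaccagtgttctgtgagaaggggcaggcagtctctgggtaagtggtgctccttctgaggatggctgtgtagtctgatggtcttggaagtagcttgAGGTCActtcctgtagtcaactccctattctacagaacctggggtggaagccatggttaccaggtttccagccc
*Pnpla3*, chr15:84167566-84167815, plus strand: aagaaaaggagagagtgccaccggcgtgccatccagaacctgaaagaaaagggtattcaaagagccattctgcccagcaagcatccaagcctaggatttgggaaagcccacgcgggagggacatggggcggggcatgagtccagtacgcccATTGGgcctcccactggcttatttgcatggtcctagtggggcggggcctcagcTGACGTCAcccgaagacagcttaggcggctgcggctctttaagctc
The capitals in *Gpam* and the first capitals in *Pnpla3* are CCAAT read on the opposite strand, 74 to 70 and 99 to 95 bases before the start. Those in *Lpin1* are AGGTCA, 74 to 69 bases before the start. AGGTCA is only part of the element that PPARγ binds, which was searched as a direct repeat. The last capitals in *Pnpla3* are TGACGTCA, the cAMP response element, 46 to 39 bases before the start. The *Agpat2* window held none of the letters searched. Over all 32851 windows of the same length, 33.8% held CCAAT, 14.0% held AGGTCA and 1.55% held TGACGTCA. The other searched motifs were a direct repeat of AGGTCA spaced by 1 base (0.0335% of windows), TTGCNNAA of the C/EBP family (9.56%), TCACNCCAC of the SREBP family (1.05%), the E-box CACGTG (6.02%) and TATAAA (12.4%). None of the 13 windows of the 8 genes held the direct repeat, the SREBP letters or the TATA letters. AGGTCA without its repeat was also in a second *Gpam* window, 196 to 191 bases before its start, and in 1 of the *Agpat1* windows. These matches are descriptions of letters, not of bound sites.

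The arrays differed in ways that touch the results. The brightest of 23 background probe sets lay between 5.84 and 7.02 on the log2 scale, and a gene is called above background here where it exceeded that value on its array. The mean of 6 adipocyte markers was 6.08 to 10.63 at D2 and 14.91 to 15.43 at D9. *Lep* was above background on no D2 array and on no Paral1-siRNA array of D9, and *Adipoq* on no Paral1-siRNA array of D2. At D2 the mean was lower in Paral1-siRNA than in Ctrl-siRNA cells in all 3 experiments, with 6.66 and 6.08 in experiment 1, 10.63 and 9.50 in experiment 2, and 10.43 and 7.43 in experiment 3. At D9 the pairs were 15.18 and 15.02, 14.91 and 14.92, and 15.33 and 15.43. Markers of dividing cells had array means of 8.67 to 10.70 at D2 and 5.97 to 7.29 at D9. Experiment 1 stood apart: *Fabp4*, a fatty acid carrier of adipocytes, was at 7.33 there in Ctrl-siRNA cells, against 14.96 and 14.67 in experiments 2 and 3, and the proliferation marker *Mki67* at 8.39 against 12.98 and 12.13. Of the preadipocyte markers 5 of 7 were measured, with array means of 7.32 to 8.07 over all 12 arrays. Endothelial markers were above background on no array, and of 7 macrophage markers 0 to 3 were above it per array. The most, 3, were on the Paral1-siRNA array of experiment 5, where their mean was also highest (5.38, against 4.82 to 5.21 elsewhere), while *Adgre1*, *Itgam*, *Ptprc* and *Csf1r* were above background on none. In the Paral1-siRNA array of experiment 5 the brown adipocyte gene *Ucp1* was at 10.65, against 3.63 to 4.45 on the other arrays. The part of these differences in the results below was not tested, and in bulk RNA a smaller share of adipocytes and less RNA per adipocyte cannot be told apart.

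**Figure D1:**
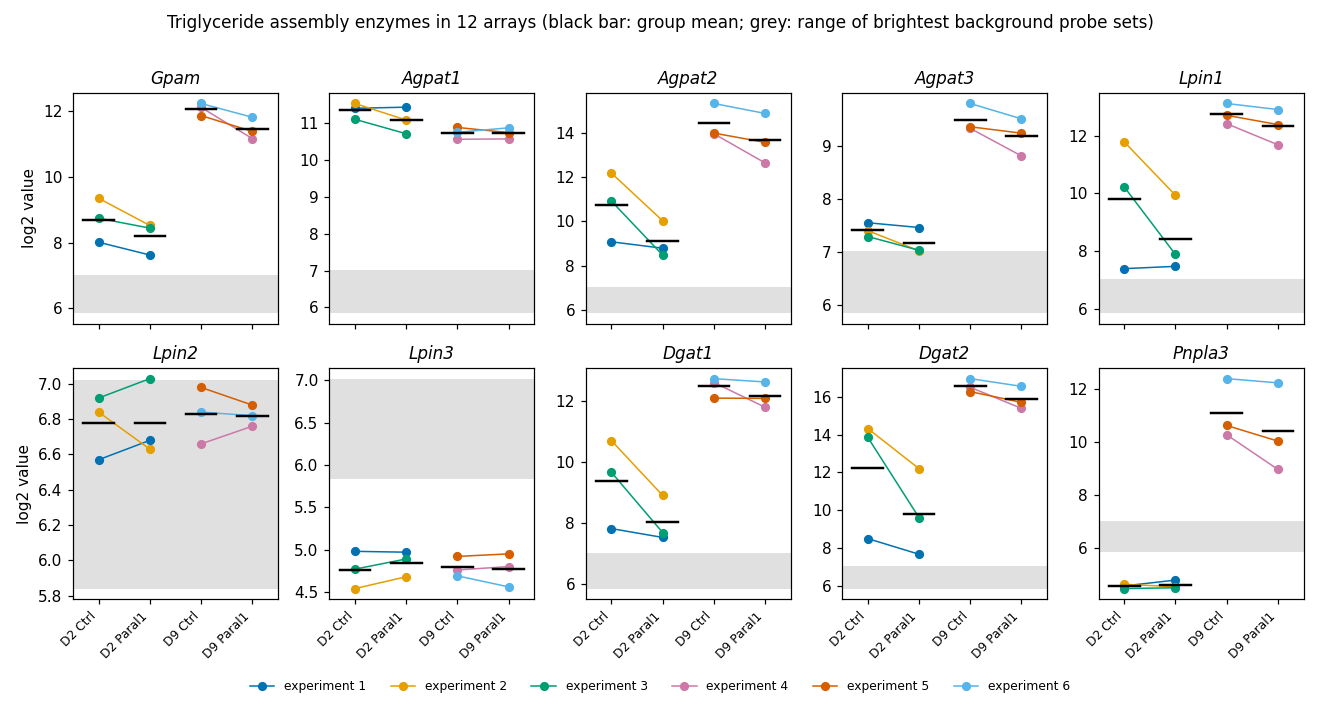
Log2 value (vertical axes, scale set per gene) of the 10 genes on each of 12 arrays, in 4 groups; points of 1 experiment are joined, black bars are group means (n = 3) and the grey band spans the brightest background probe sets (5.84 to 7.02). At D2 experiment 1 lies lowest for *Lpin1*, *Dgat1* and *Dgat2* in both groups, and *Pnpla3* is below background on every D2 array.

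*Gpam*, which commits acyl chains to glycerolipid synthesis, was lower with Paral1-siRNA in every experiment. At D2 its log2 value in Ctrl-siRNA cells was 8.01, 9.35 and 8.74 in experiments 1, 2 and 3, and in Paral1-siRNA cells 7.62, 8.52 and 8.44. The D2 groups overlapped. At D9 it was 12.12, 11.87 and 12.24 in experiments 4, 5 and 6 with Ctrl-siRNA and 11.17, 11.39 and 11.82 with Paral1-siRNA, and here the groups did not overlap. The mean difference was -0.51 at D2 (SE 0.40) and -0.62 at D9 (SE 0.19), the latter a 1.53-fold lower level. Neither passed limma over all genes (Benjamini-Hochberg adjusted p = 1.0 at both days, and 0.357 and 0.653 with the experiment as a block). The SEs above ignore the pairing of arrays by experiment. The block, which uses that pairing, gave an SE of 0.13 at each day. The exact permutation p at D9 was 0.1, the smallest that 3 against 3 arrays allow.

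Of the acyltransferases that form phosphatidic acid, *Agpat2*, the form enriched in adipose tissue, had the lowest values with Paral1-siRNA relative to control. At D2 *Agpat2* was at 9.08, 12.19 and 10.92 in Ctrl-siRNA cells and at 8.79, 10.03 and 8.48 in Paral1-siRNA cells. The difference was small in experiment 1 (-0.29) and large in experiments 2 (-2.17) and 3 (-2.44). At D9 it was at 13.97, 14.00 and 15.34 against 12.65, 13.58 and 14.89, again lower in each of the 3 experiments. The groups overlapped at both days, and the mean differences were -1.63 (SE 0.82, 3.10-fold) at D2 and -0.73 (SE 0.63, 1.66-fold) at D9, with limma adjusted p = 1.0 at both.

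*Agpat3* was at 7.55, 7.40 and 7.29 in Ctrl-siRNA cells at D2 and at 7.46, 7.02 and 7.03 in Paral1-siRNA cells. At D9 it was at 9.33, 9.36 and 9.80 against 8.81, 9.24 and 9.51. It was thus lower with Paral1-siRNA in all 6 experiments by small amounts, from -0.10 to -0.52. *Agpat1*, the widely expressed form, did not share this pattern: its differences ran from -0.45 in experiment 2 to 0.12 in experiment 6, with 3 of 6 below 0. Its values were 11.40, 11.53 and 11.10 against 11.43, 11.08 and 10.71 at D2, and 10.56, 10.88 and 10.75 against 10.57, 10.74 and 10.87 at D9.

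Among the lipins, *Lpin1*, the main phosphatidate phosphatase of adipocytes, had the largest mean differences, while *Lpin2* and *Lpin3* lay near or below background. At D2 it was at 7.39, 11.78 and 10.22 in Ctrl-siRNA cells and at 7.47, 9.93 and 7.88 in Paral1-siRNA cells. Experiment 1 thus had a low level in both groups and no lower value with Paral1-siRNA, while experiments 2 and 3 differed by -1.85 and -2.34. At D9 *Lpin1* was at 12.41, 12.70 and 13.11 against 11.68, 12.38 and 12.90. The mean difference was -1.37 (SE 1.20, 2.59-fold) at D2 and -0.42 (SE 0.33, 1.33-fold) at D9. The groups overlapped, and limma adjusted p was 1.0. Blocking by experiment gave SEs of 0.46 at D2 and 0.13 at D9, with limma adjusted p = 0.395 and 0.663.

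*Lpin2* lay near background on all arrays, from 6.57 to 7.03, and was above it on 8 of 12. *Lpin3* was above background on none, with values of 4.54 to 4.98, so no fold is given for it. Their differences at D2 were 0.01 (95% interval -0.39 to 0.41) for *Lpin2* and 0.08 (-0.31 to 0.47) for *Lpin3*. The interval of *Lpin2* holds no change of 1.5-fold, but near background a fall of that size may not be resolved.

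The last step showed the widest spread. *Dgat2*, which esterifies diacylglycerol at the lipid droplet and the endoplasmic reticulum, was at 8.49, 14.33 and 13.86 in Ctrl-siRNA cells at D2 and at 7.66, 12.20 and 9.60 in Paral1-siRNA cells. The siRNA differences of -0.82, -2.13 and -4.26 all ran one way, but the Ctrl-siRNA value of experiment 1 itself stood at -5.60 relative to the mean of the other 2 experiments, further than any siRNA difference. At D9 *Dgat2* was at 16.52, 16.29 and 16.98 against 15.40, 15.72 and 16.57. The mean difference was -2.40 (SE 1.83, 5.29-fold) at D2 and -0.70 (SE 0.33, 1.63-fold) at D9, with limma adjusted p = 1.0 at both. These SEs include the spread between experiments. Blocked by experiment, they were 0.63 at D2 and 0.15 at D9, with limma adjusted p = 0.357 and 0.653. The groups overlapped at each day.

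*Dgat1*, which also esterifies retinol and other acyl acceptors, was at 7.81, 10.70 and 9.66 against 7.52, 8.90 and 7.68 at D2. At D9 it was at 12.61, 12.10 and 12.74 against 11.80, 12.09 and 12.63, and in experiment 5 the values were nearly equal. The mean difference was -1.36 (SE 0.76, 2.56-fold) at D2 and -0.31 (SE 0.26, 1.24-fold) at D9, with limma adjusted p = 1.0. Using the experiment as a block gave SEs of 0.34 and 0.17, with limma adjusted p = 0.35 and 0.766.

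*Pnpla3* encodes a patatin-like protein of lipid droplets that can act on triglycerides and is under SREBP and ChREBP control in liver. At D2 it was below background on all 6 arrays, from 4.46 to 4.78. At D9 it was at 10.27, 10.62 and 12.39 in Ctrl-siRNA cells and at 8.96, 10.03 and 12.23 in Paral1-siRNA cells. It was lower with Paral1-siRNA in each D9 experiment, by far most in experiment 4 (-1.31), and the experiments differed among themselves by more than that. The mean D9 difference was -0.68 (SE 0.92, limma adjusted p = 1.0). Its SE was 0.21 with the experiment as a block (limma adjusted p = 0.668).

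**Figure D2:**
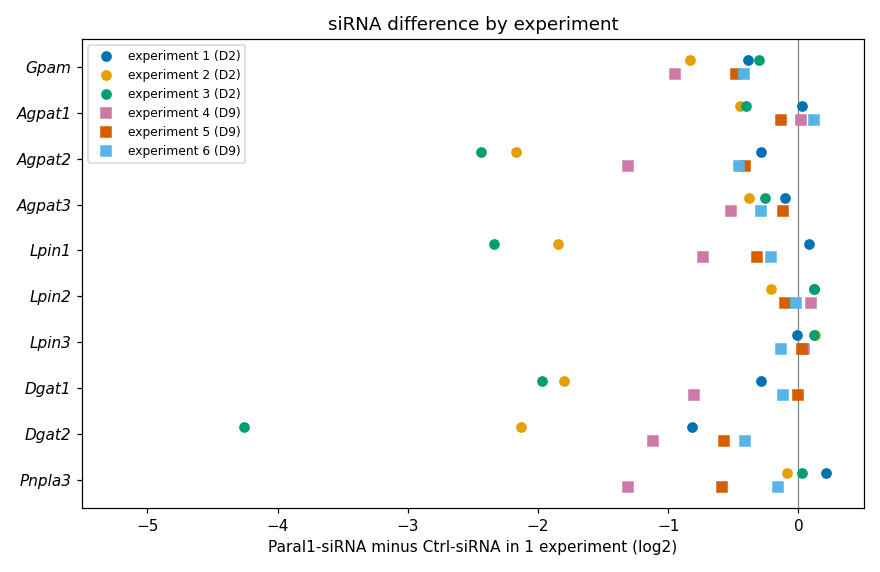
Difference of the log2 value, Paral1-siRNA minus Ctrl-siRNA, within each of 6 experiments (circles D2, squares D9) for the 10 genes. *Gpam*, *Agpat2*, *Agpat3*, *Dgat1* and *Dgat2* lie at or left of 0 in all 6 experiments, from -0.10 and beyond except for *Dgat1* in experiment 5, which lies close to 0.

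Counted over the 10 genes, 4 were lower by more than 1.5-fold with Paral1-siRNA at D2 (*Agpat2*, *Lpin1*, *Dgat1* and *Dgat2*), against 1.26% of all 30077 genes. The genes lower in all 3 experiments at D2 numbered 5 (*Gpam*, *Agpat2*, *Agpat3*, *Dgat1* and *Dgat2*), against 14.5% of all genes, and 0 had groups that did not overlap, against 2.11%. At D9, 4 were lower by more than 1.5-fold (*Gpam*, *Agpat2*, *Dgat2* and *Pnpla3*), against 0.283%. All but *Agpat1*, *Lpin2* and *Lpin3*, 7 genes, were lower in all 3 D9 experiments, against 13.0%, and 1 had groups that did not overlap (*Gpam*), against 2.5%. *Dgat1*, among the 7, was nearly equal between siRNAs in experiment 5 (12.10 against 12.09). The median difference of the 10 genes was -0.39 at D2 and -0.36 at D9, where the median of all genes was 0.02 at each day. Per array only 32.8 to 45.3% of all genes were above background, and a gene near background may not show a 1.5-fold fall. The shares of all genes therefore include many genes that could hardly be counted. These counts describe the 10 genes, whose arrays are shared, and are not 10 independent observations.

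No gene at all passed the adjusted threshold of 0.05 in limma at either day, with or without the block (0.0% of genes each time). At an unadjusted p under 0.05 and a lower level with Paral1-siRNA, 0 of the 10 genes passed at D2 without the block, against 0.665% of all genes, and 1 at D9 (*Gpam*), against 1.11%. With the experiment as a block the counts were 5 at D2 (*Gpam*, *Agpat2*, *Lpin1*, *Dgat1* and *Dgat2*), against 6.0%, and 6 at D9 (*Gpam*, *Agpat2*, *Agpat3*, *Lpin1*, *Dgat2* and *Pnpla3*), against 3.71%. Their lowest adjusted p with the block was 0.35 at D2 and 0.653 at D9. Leaving out both arrays of experiment 1 moved the D2 difference of *Dgat2* from -2.40 to -3.19, of *Lpin1* from -1.37 to -2.10, of *Agpat2* from -1.63 to -2.30 and of *Dgat1* from -1.36 to -1.89. Leaving out experiment 3 moved them the other way, to -1.48, -0.89, -1.23 and -1.05. With only the Ctrl-siRNA array of experiment 2 left out, *Lpin1* stood at -0.38, *Agpat2* at -0.90 and *Dgat1* at -0.70, and *Dgat2* was nearest to 0 at -1.33, without the Paral1-siRNA array of experiment 1. No gene passed in these fits. At D9 the count of 4 genes lower by 1.5-fold became 0 without both arrays of experiment 4, without its Paral1-siRNA array alone, or without the Ctrl-siRNA array of experiment 6. It became 2 without the Paral1-siRNA array of experiment 5 and 5 without that of experiment 6. Without experiment 4, *Gpam* stood at -0.45, *Agpat2* at -0.44 and *Dgat2* at -0.49.

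Taking both days together, with the 6 experiments as blocks, *Gpam* differed by -0.56 (SE 0.10), *Agpat2* by -1.18 (SE 0.30), *Agpat3* by -0.28 (SE 0.07), *Dgat1* by -0.83 (SE 0.28) and *Dgat2* by -1.55 (SE 0.46). These 5 were lower in 6 of 6 experiments, as were 3.76% of all genes, though *Dgat1* was nearly equal in experiment 5 (12.10 against 12.09). For each of the 5 the exact sign-flip permutation p over the 6 pairs was 0.0312, the smallest that 6 pairs can give, before any adjustment over genes. *Lpin1* differed by -0.89 (SE 0.31) and was lower in 5 of 6. None of the 10 passed limma over all genes: the lowest adjusted p was 0.207 for *Gpam*, and 0.00332% of genes passed, which is 1 gene, *Igf2r*, named after its value was seen. At an unadjusted p under 0.05, 6 of the 10 were lower, against 6.65% of all genes. *Agpat1* at -0.14 (95% interval -0.34 to 0.07) and *Agpat3* (-0.44 to -0.12) had intervals that exclude a 1.5-fold change. With no block the *Agpat3* interval was -0.59 to 0.04, which reaches about 1.5-fold. *Lpin2*, at 0.00 (-0.15 to 0.15), lay near background, where a fall may not be resolved. It is left out of this count, as is *Lpin3*, which was below background.

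The siRNA effect was not shown to differ between days for any of the 10 genes. The D9 effect minus the D2 effect was 1.70 for *Dgat2* (95% interval -2.80 to 6.20), 1.05 for *Dgat1* (-0.90 to 3.00), 0.95 for *Lpin1* (-2.05 to 3.96) and 0.90 for *Agpat2* (-1.60 to 3.41), all with limma adjusted p = 1.0. No gene of the array passed (0.0%), and at an unadjusted p under 0.05 the count was 0 of the 10, against 1.08% of all genes. With the block, the lowest adjusted p among the 10 was 0.638, for *Pnpla3*. With the block the intervals were narrower, at 0.03 to 2.07 for *Dgat1*, -0.04 to 3.44 for *Dgat2*, -0.34 to 2.25 for *Lpin1* and -0.36 to 2.17 for *Agpat2*. At an unadjusted p under 0.05 the blocked fit gave 2 of the 10, *Dgat1* and *Pnpla3*, against 7.28% of all genes.

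Between D2 and D9 most of the 10 genes rose. In Ctrl-siRNA cells 7 of the 10 genes were higher at D9 in limma, against 14.9% of all genes, and 7 were in Paral1-siRNA cells, against 14.5%: *Gpam*, *Agpat2*, *Agpat3*, *Lpin1*, *Dgat1*, *Dgat2* and *Pnpla3* in both. In Ctrl-siRNA cells *Dgat2* rose by 4.37 (SE 1.44, adjusted p = 0.0328, 20.7-fold), *Agpat2* by 3.70 (SE 0.80, adjusted p = 0.00445, 13.0-fold) and *Gpam* by 3.38 (SE 0.34, adjusted p = 3.73e-05, 10.4-fold). *Dgat1* rose by 3.09, *Lpin1* by 2.94 and *Agpat3* by 2.08. *Pnpla3*, below background at D2, was at least 21.8-fold higher at D9 in Ctrl-siRNA cells (limma adjusted p = 7.68e-05) and at least 17.8-fold higher in Paral1-siRNA cells (adjusted p = 0.000177), where the bound sets the D9 mean against the mean, over the 3 D2 arrays of the same siRNA, of each array's brightest background probe set. *Agpat1* went the other way in Ctrl-siRNA cells, where it fell by 0.62 on the log2 scale (adjusted p = 0.0231, 26.1% of all genes lower), and differed by -0.34 in Paral1-siRNA cells (adjusted p = 0.164). There it passed with quantile normalization (-0.67, adjusted p = 0.0207), without the Paral1-siRNA array of experiment 3 (-0.53, 0.0436) and without both arrays of that experiment (0.0372), so *Agpat1* was not shown to differ between siRNAs. *Lpin2* differed by 0.05 (95% interval -0.26 to 0.36). The median of the 10 genes was 3.02 in Ctrl-siRNA cells, where the median of all genes was -0.19. Each experiment lies in 1 day, so day and experiment cannot be told apart, and the D9 cells had also been replated.

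The calls of *Dgat2*, *Lpin1* and *Agpat1* in Ctrl-siRNA cells depended on the arrays in the fit. *Dgat2* did not pass in a fit of the 6 Ctrl-siRNA arrays alone (adjusted p = 0.0588), nor without the Ctrl-siRNA array of experiment 1 (2.51, adjusted p = 0.0848), 4 (0.0721), 5 (0.0626) or 6 (0.0882). *Lpin1* did not pass in the fit of 6 arrays (0.0644), nor without that of experiment 1 (1.74, 0.0907), 3 (0.0512), 4 (0.0595), 5 (0.0673) or 6 (0.0913). *Agpat1* did not pass without that of experiment 1 (0.0613), 2 (0.0740), 4 (0.0813) or 6 (0.0570). These 3 genes kept their direction in every fit run.

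**Figure D3:**
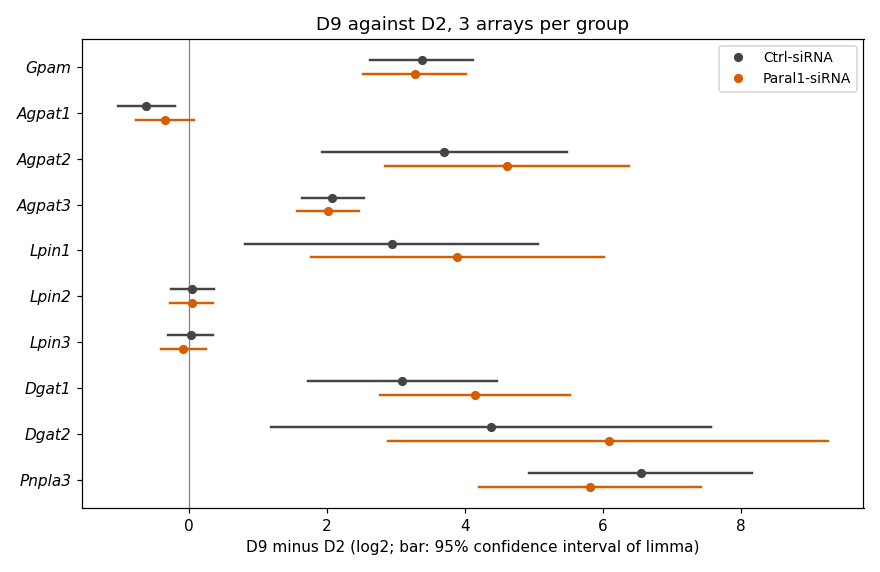
Difference of the log2 value, D9 minus D2, with its 95% confidence interval in limma, for Ctrl-siRNA (grey) and Paral1-siRNA (orange) cells, 3 arrays per group. Intervals of 7 genes lie above 0 in both, while *Lpin2* and *Lpin3* straddle 0 and *Agpat1* lies below 0 in Ctrl-siRNA cells; the *Pnpla3* value is measured from a level below background.

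Genes that carry out the same reaction were compared within the same arrays, and no pair passed an adjusted threshold of 0.05. Under the siRNA, *Agpat2* differed from *Agpat1* by a mean of -1.05 (SD 0.76, 6 experiments) and from *Agpat3* by -0.90 (SD 0.88), *Lpin1* from *Lpin2* by -0.90 (SD 0.97), and *Dgat2* from *Dgat1* by -0.72 (SD 0.78). Each of these 4 was lower in 6 of 6 experiments, with an exact sign-flip permutation p of 0.0312 and 0.055 after Benjamini-Hochberg adjustment over the 7 pairs compared. *Agpat3* and *Agpat1* did not separate (mean -0.14, SD 0.27, lower in 3 of 6, exact p = 0.375), nor did *Lpin2* and *Lpin3* (-0.03, SD 0.18). *Lpin1* differed from *Lpin3* by -0.92 (SD 1.06) and was lower in 5 of 6 experiments (exact p = 0.0938, 0.131 after adjustment). Both of these pairs rest on *Lpin3*, which was above background on no array. *Lpin2*, set against *Lpin1*, was above background on 8 of 12 arrays, so a fall of its own may not have been resolved. The first-named gene of each of the 4 pairs also had the higher D9 to D2 difference in Ctrl-siRNA cells, a contrast that was not tested.

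How the genes ran together was described across arrays. In deviations from the group means over 12 arrays, *Lpin1* and *Dgat1* ran together (Pearson r = 0.98), as did *Lpin1* and *Dgat2* (0.95) and *Dgat1* and *Dgat2* (0.94), while *Agpat3* and *Dgat2* did not (-0.27). The points share the arrays and, at D2, the low levels of experiment 1, so these are descriptions with no test. *Agpat3* ran with *Pnpla3* instead (0.85), but *Pnpla3* was below background on every D2 array. Its group SDs were 0.08 and 0.16 at D2 against 1.14 and 1.67 at D9, so this value rests mostly on the 6 D9 arrays. Likeness over the 12 arrays was ranked among 8725 genes above background in the mean and on at least 6 arrays, with provisional symbols left out. Of these, the 1 most like *Dgat1* was *Apmap* (r = 0.997), most like *Dgat2* *Ywhab* (0.995) and most like *Pnpla3* *Lctl* (0.998). Most like *Agpat2* was the TCA-cycle gene *Dlst* (0.993), and most like *Agpat3* the respiratory chain gene *Ndufa9* (0.997). Over the 6 D9 arrays alone, r was 0.95 for *Dgat1* and *Apmap*, 0.96 for *Dgat2* and *Ywhab*, and 0.98 for *Pnpla3* and *Lctl*. Over the 6 D2 arrays alone, where *Pnpla3* was below background, it was 0.99, 0.99 and 0.70. The partners were chosen over all 12 arrays, so the values within a day are no independent check of the likeness.

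**Figure D4:**
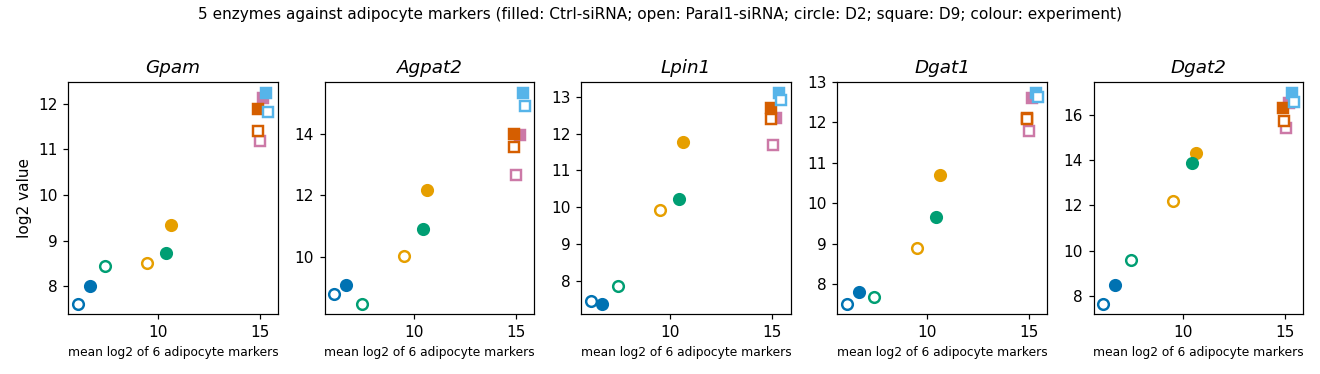
Log2 value of *Gpam*, *Agpat2*, *Lpin1*, *Dgat1* and *Dgat2* (vertical axes) against the mean log2 value of 6 adipocyte markers (horizontal axis) on 12 arrays; filled symbols are Ctrl-siRNA, open Paral1-siRNA, circles D2, squares D9, colours experiments as in the plot of values by array. The D2 arrays spread from 6.08 to 10.63 on the marker axis and the enzymes spread with them, while the D9 arrays lie together at 14.91 to 15.43.

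Neighbouring steps of glycerolipid synthesis were taken as lists, and no gene of these lists passed limma for the siRNA at D2 or D9. Of the other acylation and dephosphorylation steps 12 of 13 genes were measured, with a median of 0.07 at D2 and -0.04 at D9. *Gpat3*, which makes lysophosphatidic acid at the endoplasmic reticulum, differed by -1.62 at D2 (SE 1.18) and by -0.20 at D9. The microsomal *Gpat4* differed by -0.51 at D2 (SE 0.21). The phospholipid branch, 13 of 13 measured, had medians of 0.03 and -0.01, and the fatty acid activating *Acsl* genes, 3 of 5 measured, 0.13 and 0.09. At D2, 7 of the 13 phospholipid genes were higher and 6 lower, with *Etnk1* at 0.41 (SE 0.32). All 3 *Acsl* genes were higher at D2, with *Acsl5* at 0.26 (SE 0.14). The 4 genes for droplet formation had medians of -0.15 and -0.04. *Fitm2*, which binds triglyceride, differed by -1.35 at D2 (SE 0.61), and *Tmem159* by 0.23 (SE 0.21). The regulators, 7 of 8 measured, had medians of -0.23 and -0.10. *Cebpa* differed by -2.05 (SE 1.05) and *Pparg* by -1.41 (SE 1.02) at D2, and both by -0.24 at D9. The largest regulator difference at D9 was upward, at 0.39 for *Nr1h3* (SE 0.18), which was higher in each D9 experiment. The patatin-like family, 6 of 7 measured, had medians of -0.06 and 0.01, and its lipase *Pnpla2* differed by -1.36 at D2 (SE 1.07) and by -0.10 at D9. In Ctrl-siRNA cells between D2 and D9, *Gpd1*, which supplies glycerol 3-phosphate, rose by 10.56 (limma adjusted p = 2.03e-08). Its D2 mean of 6.72 (SD 0.56) lay within the range of the brightest background probe sets (5.84 to 7.02). The size of that rise is thus not resolved. *Pnpla2* rose by 3.30 (0.0098) and *Chpt1*, which turns diacylglycerol into phosphatidylcholine, by 3.53 (1.45e-06), while *Agpat4* fell by 1.87 (0.00701). In all, 2 of the 12 other acylation and dephosphorylation genes rose and 4 fell, and 7 of 13 phospholipid genes rose and 1 fell. Of the regulators 4 of 7 rose, and of the patatin-like family 2 of 6, with none lower in either list. Over all genes 14.9% rose and 26.1% fell, so the acylation and dephosphorylation counts lie near the share of all genes.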

How the data were processed

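The data were 12 arrays in 4 groups of 3. Per the labels and methods, the authors corrected raw signals for GC content and for signal compression (Affymetrix Expression Console 1.4.1), ran RMA, and deposited log2 values per transcript cluster. These log2 values were used with no further normalization, and precision is limited by 3 arrays per group. Of 65770 transcript clusters, 30473 were assigned to 1 symbol (330 updated) and 2176 to several, which were not used. They stood for 30077 genes, of which 306 had several probe sets and kept the brightest. Other symbols (*Gk*, *Acsl1*, *Acsl3*, *Srebf1*, *Pnpla8*) were not analysed here.

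Each day was fitted alone with limma 3.58.1 in R 4.3.3 (lmFit, eBayes), adjusting p by Benjamini-Hochberg across the 30077 genes. Days were compared over all 12 arrays. Single values used two-sided exact permutation tests. The fits were tested on simulated data. All 10 members are named, with the 3 largest changes of each pathway list above background, and the 3 genes most correlated with each member, of which the text gives some. Members and lists were chosen with earlier results of these data known. Alternatives were quantile normalization, centring, a filter on dim genes, the mean of probe sets, other priors, array weights, the methods' t-test, other arrays in the fit and leaving out arrays.

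The labels number the experiments. Over 15146 genes, deviations from the group mean correlated at 0.71 to 0.86 between arrays of 1 number and at -0.79 to 0.41 between others, so the numbers pair the arrays. The main fits per day do not use this pairing. The sources used here do not state whether arrays of 1 group are separate cultures. The p-values then cover only array-to-array spread, the source of which was not tested. That spread was wide at D2, where *Fabp4* in Ctrl-siRNA cells was at 7.33, 14.96 and 14.67.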

Additional observations from a re-analysis of the deposited data

How the results depend on the processing

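The siRNA comparisons made no call among the 10 genes under any alternative run, so they had no call to lose. With the replicate block (the paired fit) the lowest adjusted p among the 10 was 0.35 at D2, 0.653 at D9 and 0.638 for the difference between days, and it changed no call. Of 1374 alternative values of single members, 1264 kept direction and side of the threshold, 77 reversed, 30 lost a call and 3 gained one (all 3 *Agpat1* from D2 to D9 in Paral1-siRNA cells). Of the reversals 75 had a main value nearer 0 than 0.15. The cause was not tested for any of them.

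With quantile normalization, 2 members were lower by 1.5-fold at D9. *Agpat1* was then at 0.082 and *Lpin2* at 0.014 at D9, *Lpin3* at -0.016 over both days and at 0.093 from D2 to D9 in Paral1-siRNA cells. With array medians subtracted, *Lpin2* was at -0.039 at D2, *Lpin2* at -0.044 and *Lpin3* at -0.017 over both days, and *Lpin3* at 0.047 from D2 to D9 in Paral1-siRNA cells. With array weights, *Pnpla3* was at -0.012 at D2, *Agpat1* at 0.018, *Lpin2* at 0.03 and *Lpin3* at 0.055 at D9, and *Lpin2* at -0.06 and -0.087 from D2 to D9 in Ctrl-siRNA and Paral1-siRNA cells. The median of the members from D2 to D9 in Ctrl-siRNA cells was then 2.384. The 1 gene past the threshold over both days, *Igf2r*, became 0 genes with quantile normalization, with medians subtracted, with a trend and robust prior, with no replicate block and with any array left out. Leaving out dim genes, which tests fewer genes, gave 5196 calls from D2 to D9 in Ctrl-siRNA and 5309 in Paral1-siRNA cells. In Ctrl-siRNA cells *Lpin1* lost its call with quantile normalization (adjusted p = 0.0543), and *Agpat1* with medians subtracted (0.0545) or a trend and robust prior (0.0572), in limma.

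Leaving out an array or an experiment gave these ranges. At D2, *Lpin2* ran from -0.117 to 0.117, *Lpin3* from -0.032 to 0.189 and *Pnpla3* from -0.037 to 0.122. At D9, members lower by 1.5-fold ran from 0 to 5, *Agpat1* from -0.085 to 0.077, *Lpin2* from -0.088 to 0.072, *Lpin3* from -0.112 to 0.083, and *Pnpla3* from -1.597 without the Paral1-siRNA array of experiment 6 to 0.038 without that of experiment 4. Over both days, *Lpin2* ran from -0.021 to 0.044. For the difference of the siRNA effect between days, the genes called ran from 0 to 1 of all genes, the median of members from -0.014 to 0.265, *Gpam* from -0.436 to 0.236, *Agpat3* from -0.225 to 0.122, *Lpin1* from -0.038 to 2.157, *Lpin2* from -0.121 to 0.113 and *Lpin3* from -0.211 to 0.009. From D2 to D9 in Ctrl-siRNA cells, 5 to 8 members were called, with a median of 2.23 to 3.726, *Lpin2* from -0.053 to 0.133 and *Lpin3* from -0.086 to 0.135. In Paral1-siRNA cells *Lpin2* ran from -0.039 to 0.163 and *Lpin3* from -0.167 to 0.029, and *Lpin1* lost its call without experiment 6 (limma adjusted p = 0.0534). *Lpin3* and, at D2, *Pnpla3* lay below background, where values are not resolved.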
